A study of Homo sapiens with 12 samples.

Results

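The response of EA.hy926 cells to low oxygen was measured in the presence of the copper chelator TEPA, by comparing 3 TEPA+hypoxia libraries with 3 TEPA libraries. These are 6 of the 12 RNA sequencing libraries of a study of copper and the activity of the transcription factor HIF-1, whose other groups, hypoxia and control, received no TEPA. In TEPA+hypoxia, cells were given 50 µM TEPA for 16 h and then spent a further 8 h in 1% oxygen. In TEPA, cells were given 50 µM TEPA for the same 16 h and spent the further 8 h at normal oxygen, so both groups carry the chelator and differ, by their labels, in oxygen alone. The labels do not say whether the medium was changed after the first step, and no copper measurement was used here. EA.hy926 is a single established line made by fusing human umbilical vein endothelial cells with A549 lung carcinoma cells. Nothing in the labels says that the replicates are separate cultures, so the p-values measure only the spread between these libraries. Because the RNA was taken from bulk cultures, fewer cells of a type and less RNA per cell cannot be told apart.

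Cells sense oxygen through prolyl hydroxylases, which mark the HIF-1 alpha and HIF-2 alpha subunits for destruction by the von Hippel-Lindau complex while oxygen is plentiful. When oxygen falls, the alpha subunits persist, pair with ARNT and bind DNA at sites built around the letters ACGTG. The genes they turn on move glucose into the cell, divert pyruvate from mitochondria, build collagen, clear mitochondria and recruit blood vessels, and in endothelial cells the same program feeds vessel growth. Copper is carried inside cells by chaperones such as ATOX1 and CCS and has been linked to the DNA binding of HIF-1, which is the reason for chelating it here.

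Total counts of the 6 libraries ran from 15977762 to 24778944, and 3 counts corresponded to 0.122 to 0.188 CPM (counts scaled to library size), a floor that covers counting error only. After low counts were filtered out, 13968 of 51141 gene symbols were tested, holding 99.9% of the counts. Libraries of the same group correlated across genes at r = 0.988 to 0.994, and libraries of different groups at 0.981 to 0.991. Of 20 endothelial markers, 18 passed the filter, with PECAM1 at 611 ± 29.4 CPM in TEPA+hypoxia and 689 ± 21.0 CPM in TEPA and CDH5 at 723 ± 26.5 CPM in TEPA+hypoxia and 762 ± 36.6 CPM in TEPA (SD, n = 3 each), while CLDN5 and EMCN had 0 counts. Counts of epithelial markers, which the A549 parent could bring, were uneven: KRT7 averaged 4308 CPM in TEPA+hypoxia and 4985 CPM in TEPA, whereas CDH1, ESRP1, GRHL2, NKX2-1 and SFTPC had 0 counts in all 6 libraries. Summed endothelial markers held 4969 to 5201 CPM in TEPA+hypoxia and 5288 to 5448 CPM in TEPA, and summed epithelial markers 6224 to 7326 CPM in TEPA+hypoxia and 7470 to 8057 CPM in TEPA. No endothelial marker was called (edgeR, with 5 of the 18 at an unadjusted p under 0.05), and DESeq2 and limma-voom called 0. After correction for GC content and transcript length, edgeR called 1 of them higher and 2 lower. That correction called 266 of 12269 genes higher and 516 lower. PECAM1 gained a call in 2 of 17 alternative settings. Of the 8 epithelial markers tested KRT80 was the only one that rose and 1 fell. The leukocyte markers summed to 159 to 173 CPM in TEPA+hypoxia and 168 to 194 CPM in TEPA, nearly all of it CD68, and 7 of the 12, PTPRC among them, had 0 counts. The part of these markers in the results was not tested.

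Low oxygen under TEPA raised a set of genes that, at a mean of 5 CPM or more, was led by ANGPTL4, ZMAT1, DDIT4 and the kinase CLK1. Larger rises, such as 2.73 on the log2 scale for SPACA6P-AS, were called below that level. The genes that fell included CYP1A1, small nucleolar RNAs and transfer RNAs of the mitochondrial genome. All the called transfer RNAs but TRNL1 had a mean under 5 CPM over the 6 libraries. By edgeR's quasi-likelihood test with Benjamini-Hochberg adjustment over all genes tested, 205 genes were higher in TEPA+hypoxia (1.47% of those tested) and 150 were lower (1.07%), together 2.54%. The changes were small: 37 of the genes that rose and 19 of those that fell differed by at least 2-fold, and the median log2 fold change was 0.63 among the genes that rose and -0.43 among those that fell, against 0.01 over all genes tested. In all 355 called genes the 3 TEPA+hypoxia libraries lay entirely above or below the 3 TEPA libraries, as they did in 30.9% of all genes tested. Single libraries carried much weight in the number called: 28 genes were higher and 16 lower without TEPA 1, 30 and 15 without TEPA 2, 44 and 24 without TEPA 3, 52 and 24 without TEPA+hypoxia 2, and 575 and 550 without TEPA+hypoxia 3. The split between directions moved too, to 245 higher and 116 lower under upper quartile scaling and to 266 and 516 after correction for GC content and transcript length.

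**Figure D1:**
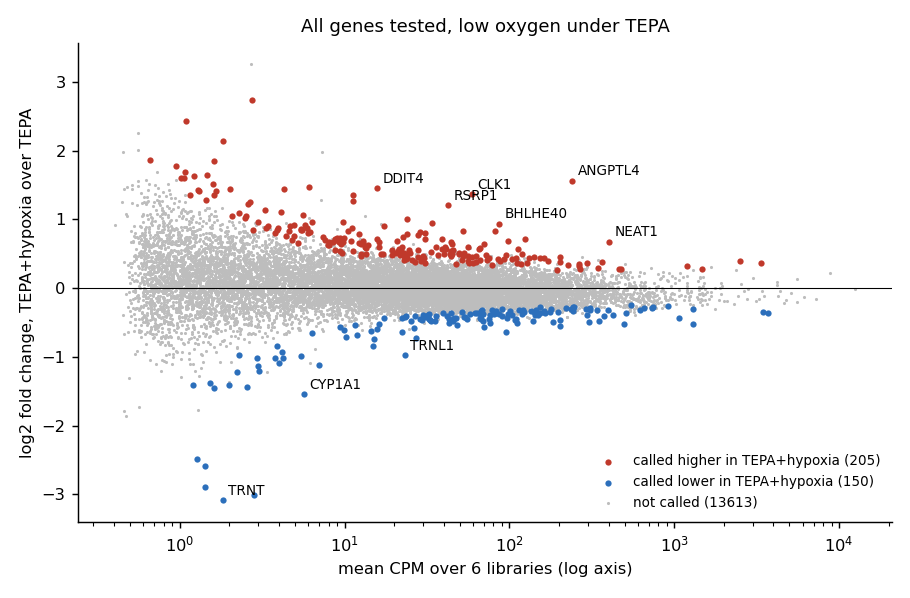
Log2 fold change of TEPA+hypoxia over TEPA (y axis) against mean CPM over the 6 libraries (log x axis), 1 point per gene, with the 205 genes called higher in red, the 150 called lower in blue and the others in grey. ANGPTL4, at 1.56, combines a large change with a high level, while the strongest falls, such as TRNT at -3.09, are of RNAs at a few CPM.

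Known HIF targets were among the genes that rose. Of 43 targets listed, 42 were in the table and 35 had enough counts to test; 13 of these were called higher, 1 was called lower and 29 had a positive log2 fold change, with a median of 0.28 against 0.01 over all genes tested. The 13 are 37.1% of the 35, against 1.47% called higher among all genes tested. The 13 were ADM, ANGPTL4, BHLHE40, BNIP3, BNIP3L, DDIT4, ENO2, HK2, KDM3A, P4HA1, PFKFB4, SLC2A1 and VEGFA. The number was 7 when TEPA 1, TEPA 2, TEPA 3 or TEPA+hypoxia 2 was left out and 19 when TEPA+hypoxia 3 was left out.

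Among secreted factors, ANGPTL4, which inhibits lipoprotein lipase and acts on vessel permeability, had 370, 383 and 328 CPM in TEPA+hypoxia 1 to 3, against 129, 124 and 112 CPM in TEPA 1 to 3. The lowest TEPA+hypoxia library was far above the highest TEPA library, and the log2 fold change was 1.56 ± 0.08 (SE; adjusted p = 2.99e-06, edgeR), a 2.95-fold rise. VEGFA, the main growth factor for vessels, had 17.6, 21.7 and 20.2 CPM in TEPA+hypoxia and 12.3, 13.5 and 11.5 CPM in TEPA, groups that did not overlap, with a log2 fold change of 0.67 ± 0.12 (adjusted p = 0.0158, edgeR). ADM, which encodes the vasodilator adrenomedullin, had 68.8, 73.8 and 62.7 CPM in TEPA+hypoxia and 50.2, 52.7 and 47.5 CPM in TEPA, again without overlap (log2 fold change 0.45 ± 0.09, adjusted p = 0.0242, edgeR).

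Transport and breakdown of glucose rose at single steps. SLC2A1, the glucose transporter GLUT1, had 119, 130 and 113 CPM in TEPA+hypoxia, against 74.4, 76.9 and 73.5 CPM in TEPA, and all TEPA+hypoxia libraries exceeded all TEPA libraries (log2 fold change 0.69 ± 0.08, adjusted p = 0.00123, edgeR). HK2, a hexokinase that traps glucose in the cell, rose by 0.57 ± 0.10 on the log2 scale, and PFKFB4, which makes an activator of phosphofructokinase, by 0.73 ± 0.12. ENO2, an enolase isoform, had 24.7, 24.2 and 19.4 CPM in TEPA+hypoxia and 11.98, 12.56 and 12.04 CPM in TEPA (log2 fold change 0.90 ± 0.12, adjusted p = 0.00294, edgeR). The rest of the pathway did not pass the test: of 25 genes of glycolysis and pyruvate use tested, these 4 were higher, against 1.47% of all genes tested, none was lower and the median was -0.03. Enzymes that were not called included PGK1, at 433 ± 42.2 CPM in TEPA+hypoxia and 443 ± 8.71 CPM in TEPA. LDHA, at 3156 ± 173 CPM in TEPA+hypoxia and 2857 ± 115 CPM in TEPA, was not called. Nor was GAPDH, at 6833 ± 425 CPM in TEPA+hypoxia and 7605 ± 371 CPM in TEPA (SD, n = 3 each). PDK1, the kinase that closes pyruvate dehydrogenase, had 9.38, 10.2 and 11.5 CPM in TEPA+hypoxia and 5.22, 6.92 and 8.46 CPM in TEPA, groups that did not overlap, yet missed the threshold (log2 fold change 0.62 ± 0.17, adjusted p = 0.0756, edgeR). The count of 4 was 2 without TEPA 1, TEPA 2, TEPA 3 or TEPA+hypoxia 2, and 9 without TEPA+hypoxia 3.

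Among enzymes that use oxygen to modify collagen or chromatin, P4HA1, PLOD2 and KDM3A rose. Of 14 collagen-modifying enzymes tested 2 were called higher, against 1.47% of all genes tested. P4HA1, the catalytic subunit of collagen prolyl 4-hydroxylase, had 147, 150 and 163 CPM in TEPA+hypoxia, against 104, 87.9 and 89.4 CPM in TEPA (log2 fold change 0.71 ± 0.08, adjusted p = 0.00159, edgeR). PLOD2, which hydroxylates collagen lysines, rose to 2848 ± 233 CPM in TEPA+hypoxia, against 2161 ± 232 CPM in TEPA (SD, n = 3 each; log2 fold change 0.40). PLOD2 was at 0.22 after correction for GC content and length, and lost its call in 6 of 17 alternatives. The 12 other collagen-modifying enzymes tested did not pass, among them LOX, a copper-dependent enzyme that cross-links collagen, at 103, 106 and 117 CPM in TEPA+hypoxia and 94.6, 85.8 and 89.3 CPM in TEPA (log2 fold change 0.27 ± 0.08, adjusted p = 0.0773, edgeR). Of 16 histone demethylases tested, KDM3A alone was called: it had 96.2, 110 and 110 CPM in TEPA+hypoxia and 54.6, 58.2 and 64.5 CPM in TEPA (log2 fold change 0.84 ± 0.09, adjusted p = 9.63e-04, edgeR). KDM3A removes methyl groups from lysine 9 of histone H3. None of 28 extracellular matrix genes tested was called (edgeR; 10 had an unadjusted p under 0.05, and DESeq2 called 1 and limma-voom 0). After correction for GC content and length 2 of them were higher and 2 lower, while 266 of 12269 genes were called higher and 516 lower.

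DDIT4, BHLHE40, BNIP3, BNIP3L and MCL1 also rose. DDIT4, which encodes REDD1, a brake on the mTOR complex, had 22.9, 24.9 and 21.2 CPM in TEPA+hypoxia, against 8.68, 8.98 and 7.46 CPM in TEPA, a 2.74-fold rise between groups that were far apart (log2 fold change 1.45 ± 0.12, adjusted p = 1.19e-04, edgeR). BHLHE40, a transcriptional repressor that also acts on the circadian clock, had 102, 113 and 126 CPM in TEPA+hypoxia and 58.8, 61.1 and 58.4 CPM in TEPA (log2 fold change 0.94 ± 0.09, adjusted p = 3.84e-04, edgeR). BNIP3 and BNIP3L, receptors that tag mitochondria for removal, rose more modestly, by 0.37 ± 0.08 and 0.42 ± 0.08 on the log2 scale. Of 11 mitophagy and cell death genes tested, 3 were called higher, against 1.47% of all genes tested. Beside BNIP3 and BNIP3L this was MCL1, a survival factor of the BCL2 family, at 0.28 ± 0.07. Of 17 alternatives, MCL1 lost its call in 8, BNIP3 in 6 and BNIP3L in 5. The other 11 genes of the circadian clock tested and the other 5 mTOR brake genes were not called.

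**Figure D2:**
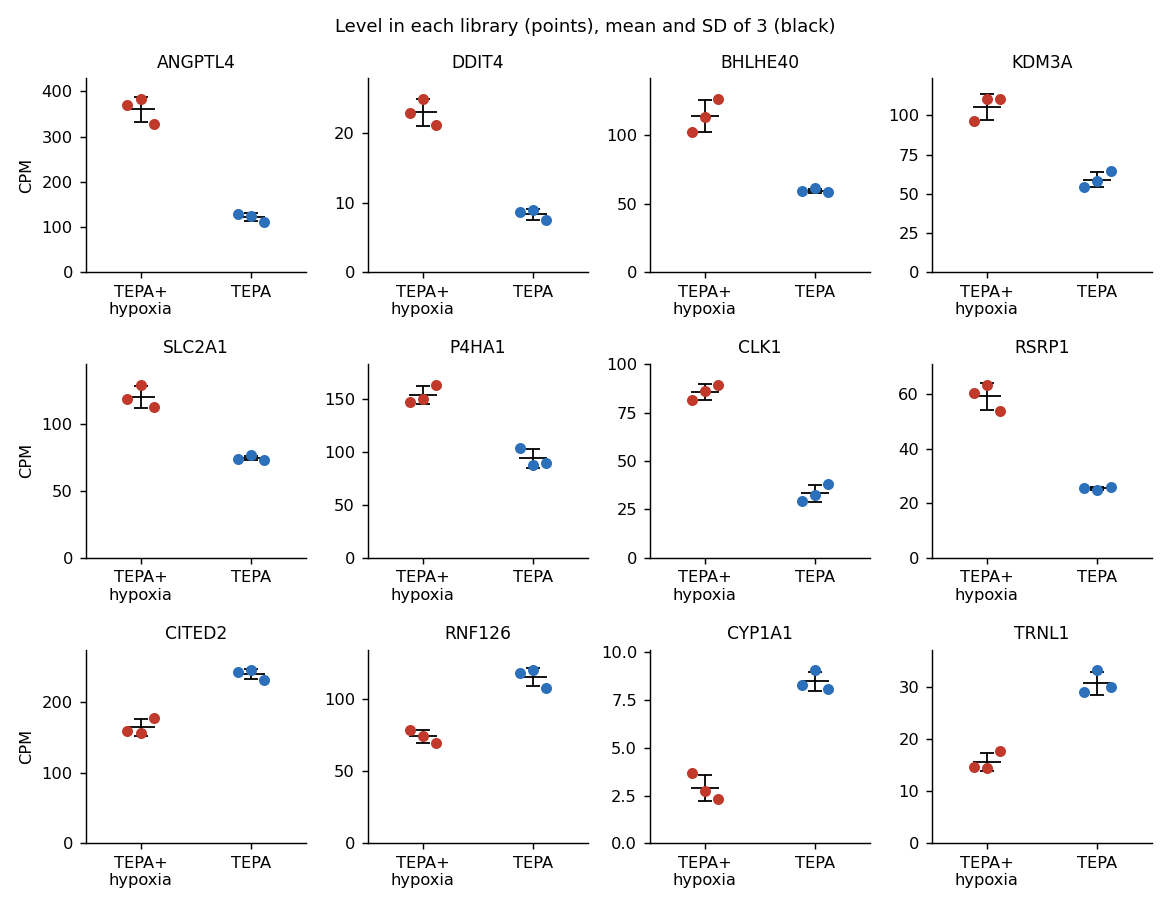
Level in CPM (y axes from 0) of 12 genes in each library, with TEPA+hypoxia in red left of TEPA in blue and the mean and SD of 3 libraries in black. In each panel the groups do not overlap; ANGPTL4 sits between 328 and 383 CPM in TEPA+hypoxia and between 112 and 129 CPM in TEPA.

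The 22 HIF targets that were not called higher include ANKRD37, whose libraries did not overlap between the groups. ANKRD37 had 6.02 ± 0.471 CPM in TEPA+hypoxia and 3.68 ± 0.891 CPM in TEPA (log2 fold change 0.71 ± 0.19, adjusted p = 0.0643, edgeR). EGLN3 had 0 counts in the 6 libraries and CA9 at most 1, so these familiar markers of low oxygen gave no value here. CITED2 fell: it encodes a protein that competes with HIF-1 for its coactivators, and it had 159, 156 and 178 CPM in TEPA+hypoxia, against 243, 245 and 232 CPM in TEPA (log2 fold change -0.55 ± 0.07, adjusted p = 0.00305, edgeR). STC1, a secreted glycoprotein outside the list, rose to 7.49 ± 1.43 CPM in TEPA+hypoxia, against 4.01 ± 0.795 CPM in TEPA (SD, n = 3 each).

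**Figure D3:**
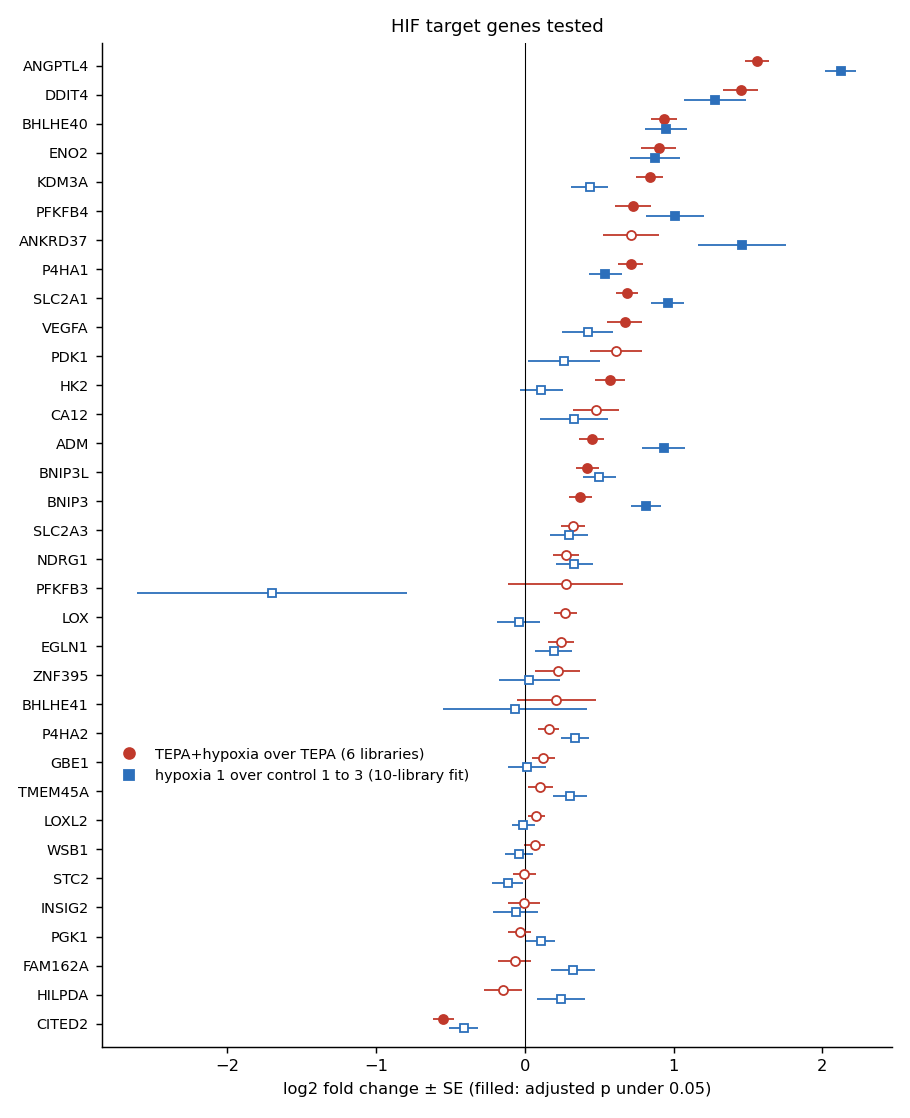
Log2 fold change with its SE (x axis) of 34 of the 35 HIF targets tested, as red circles for TEPA+hypoxia over TEPA and, beneath each, blue squares for low oxygen without TEPA in a fit that leaves out hypoxia 2 and 3; filled symbols passed an adjusted p of 0.05. Of the 34 red circles 28 lie right of 0, from ANGPTL4 at 1.56 at the top to CITED2 at -0.55 at the bottom.

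The promoters of 6 targets that rose, ANGPTL4, DDIT4, BHLHE40, ENO2, P4HA1 and BNIP3, are shown because they hold the HIF core letters, together with that of CYP1A1, which holds them too but fell. Each sequence is the 250 bases before the RefSeq start of transcription (GRCh38.p14), written 5′ to 3′ on the gene's own strand, with every ACGTG, or CACGT where the match is on the other strand, in capitals; where both overlap the capitals read CACGTG. They lie at chr19:8363905-8364154 (ANGPTL4, plus strand), chr10:72273674-72273923 (DDIT4, plus), chr3:4979187-4979436 (BHLHE40, plus), chr12:6914330-6914579 (ENO2, plus), chr10:73096867-73097116 (P4HA1, minus), chr10:131981924-131982173 (BNIP3, minus) and chr15:74725529-74725778 (CYP1A1, minus).
ANGPTL4: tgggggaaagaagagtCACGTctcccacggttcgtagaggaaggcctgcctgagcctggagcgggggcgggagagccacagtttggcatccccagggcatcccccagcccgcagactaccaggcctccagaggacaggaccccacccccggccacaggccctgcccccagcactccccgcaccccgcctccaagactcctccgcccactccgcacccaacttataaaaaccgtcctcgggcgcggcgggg
DDIT4: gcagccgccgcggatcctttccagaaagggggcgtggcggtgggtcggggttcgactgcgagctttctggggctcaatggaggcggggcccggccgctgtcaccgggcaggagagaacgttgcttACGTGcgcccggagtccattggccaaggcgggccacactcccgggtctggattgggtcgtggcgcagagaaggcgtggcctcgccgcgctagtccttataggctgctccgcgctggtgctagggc
BHLHE40: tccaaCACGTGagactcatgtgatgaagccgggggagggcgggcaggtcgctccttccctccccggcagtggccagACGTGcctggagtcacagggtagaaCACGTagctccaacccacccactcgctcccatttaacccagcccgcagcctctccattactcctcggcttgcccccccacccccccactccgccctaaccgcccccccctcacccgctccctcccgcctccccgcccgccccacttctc
ENO2: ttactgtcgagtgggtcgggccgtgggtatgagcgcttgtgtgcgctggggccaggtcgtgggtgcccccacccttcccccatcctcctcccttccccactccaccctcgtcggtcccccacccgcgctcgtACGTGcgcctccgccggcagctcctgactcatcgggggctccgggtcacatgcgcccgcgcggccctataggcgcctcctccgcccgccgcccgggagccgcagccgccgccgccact
P4HA1: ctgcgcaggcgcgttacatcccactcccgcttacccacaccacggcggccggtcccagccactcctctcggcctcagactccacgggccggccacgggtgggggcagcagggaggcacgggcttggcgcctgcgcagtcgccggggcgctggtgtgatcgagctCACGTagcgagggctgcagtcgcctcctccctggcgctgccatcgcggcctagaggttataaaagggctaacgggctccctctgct
BNIP3: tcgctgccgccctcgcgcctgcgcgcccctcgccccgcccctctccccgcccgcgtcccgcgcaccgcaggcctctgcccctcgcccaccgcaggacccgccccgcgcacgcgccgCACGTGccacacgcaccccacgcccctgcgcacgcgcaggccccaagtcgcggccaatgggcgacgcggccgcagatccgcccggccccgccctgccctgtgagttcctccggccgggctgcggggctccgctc
CYP1A1: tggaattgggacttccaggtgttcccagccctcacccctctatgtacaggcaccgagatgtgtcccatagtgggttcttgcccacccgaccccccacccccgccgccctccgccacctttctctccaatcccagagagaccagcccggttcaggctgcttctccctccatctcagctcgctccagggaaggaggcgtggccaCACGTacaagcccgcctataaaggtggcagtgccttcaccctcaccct

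The letters begin 125 bases before the start in DDIT4, 118 in ENO2 and 86 in P4HA1, while in ANGPTL4 they lie farther out, at 234 bases. BHLHE40 holds 4 matches on the 2 strands together, a pair of which form 1 CACGTG, and BNIP3 holds 1 such palindrome. Of 35116 RefSeq promoters, 18.5% hold the letters on either strand in these 250 bases, and of the 9395 tested genes with a promoter in the table, 29.02% do. The share was 30.1% of 136 genes called higher and 28.4% of 88 called lower. Among HIF targets it was 70.4% of the 27 with a promoter: 7 of 11 called higher and 11 of 15 not called. A match is a description of the sequence and does not show that HIF binds there.

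The genes called among HIF subunits and the machinery that senses oxygen were all lower. Of 11 HIF subunits, oxygen sensors and coactivators tested, none was higher and 2 were lower, CITED2 and EPAS1, while 1.07% of all genes tested were called lower. EPAS1, which encodes HIF-2 alpha, had 228, 237 and 295 CPM in TEPA+hypoxia and 386, 333 and 349 CPM in TEPA. The groups were apart, though TEPA+hypoxia 3 stood closest to TEPA (log2 fold change -0.49 ± 0.10, adjusted p = 0.0267, edgeR). Of 17 alternatives, EPAS1 lost its call in 5 and CITED2 in 1. HIF1A had 93.4, 103 and 131 CPM in TEPA+hypoxia and 121, 104 and 117 CPM in TEPA, which overlap (-0.07 ± 0.11 on the log2 scale, adjusted p = 0.742, edgeR). ARNT, the partner of both alpha subunits, averaged 31.0 CPM in TEPA+hypoxia and 30.7 CPM in TEPA, and VHL, which marks them for destruction, 64.4 CPM in TEPA+hypoxia and 67.4 CPM in TEPA. EGLN1, the main prolyl hydroxylase and itself a HIF target, had 80.4, 85.4 and 95.9 CPM in TEPA+hypoxia and 75.3, 70.0 and 75.8 CPM in TEPA (adjusted p = 0.119, edgeR).

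Angiogenic signalling had 4 genes called higher and 1 lower among 26 tested, against 1.47% and 1.07% of all genes tested, with a median of 0.13. Beside VEGFA and ADM these were APLN, the ligand of the apelin receptor, at 110, 118 and 105 CPM in TEPA+hypoxia and 80.5, 83.2 and 75.1 CPM in TEPA (log2 fold change 0.48 ± 0.08, adjusted p = 0.0110, edgeR), and JAG1, a Notch ligand, at 126 ± 7.38 CPM in TEPA+hypoxia and 97.4 ± 5.04 CPM in TEPA (SD, n = 3 each). VEGFB, a relative of VEGFA that acts on lipid uptake, fell to 34.6 ± 0.423 CPM in TEPA+hypoxia, against 44.4 ± 3.05 CPM in TEPA (log2 fold change -0.36), and lost its call in 10 of 17 alternatives, the GC and length correction (-0.22) among them. The 4 calls were 0 without TEPA 1, TEPA 3 or TEPA+hypoxia 2 and 1 without TEPA 2.

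CLK1 and RSRP1, which are not on the HIF target list, rose by about as much as its leading members. CLK1, a kinase that phosphorylates SR splicing factors, had 81.3, 85.8 and 89.3 CPM in TEPA+hypoxia, against 29.6, 32.2 and 38.1 CPM in TEPA, a 2.57-fold rise (log2 fold change 1.36 ± 0.10, adjusted p = 4.97e-05, edgeR). RSRP1, an arginine- and serine-rich nuclear protein, had 60.6, 63.4 and 53.7 CPM in TEPA+hypoxia and 25.68, 24.996 and 26.02 CPM in TEPA (log2 fold change 1.21 ± 0.09, adjusted p = 4.97e-05, edgeR). CLK4 rose less, to 11.1 ± 0.824 CPM in TEPA+hypoxia, against 7.63 ± 0.438 CPM in TEPA, and its call was lost in 9 of 17 alternatives. The 2 other members of this list were not called, and nor were the 13 SR splicing factors tested (edgeR; 4 had an unadjusted p under 0.05 and DESeq2 called 1). CLK1 and RSRP1 stayed called in each of the 6 fits that left out 1 library.

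Several long noncoding RNAs rose. NEAT1, the scaffold of nuclear paraspeckles, had 519, 550 and 419 CPM in TEPA+hypoxia, against 305, 286 and 341 CPM in TEPA (log2 fold change 0.68 ± 0.10, adjusted p = 0.00632, edgeR), while its neighbour MALAT1 had 260 ± 22.3 CPM in TEPA+hypoxia and 310 ± 5.26 CPM in TEPA and was not called. MALAT1 gained a call, as lower, in 4 of 17 alternatives, and NEAT1 lost its call in 4. NEAT1 was at 0.44 with an adjusted p of 0.0797 (edgeR) after the correction for GC content and length. KCNQ1OT1, which lies antisense within KCNQ1, had 7.61 ± 0.812 CPM in TEPA+hypoxia and 3.60 ± 1.02 CPM in TEPA (SD, n = 3 each); its log2 fold change was 1.06, and 0.61 with an adjusted p of 0.0498 (edgeR) after that correction, and its call was lost in 5 of 17 alternatives. Among the 1439 tested symbols of the LOC, LINC and antisense kind, 47 were higher (3.27%) and 3 lower (0.21%), with a median of 0.17. Over all genes tested 1.47% were higher and 1.07% lower, with a median of 0.01. The 6 that rose most at 5 CPM or more were LOC105370496, HNRNPU-AS1, LOC284454, LOC105372712, LOC105370526 and THUMPD3-AS1, with log2 fold changes of 0.87 to 1.36. FUT8-AS1 and LOC90784 fell, by 0.60 and 0.42 on that scale. Whether the counting used strand is not given in the sources used here, so the antisense RNAs cannot be told apart from reads of the genes they overlap.

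Stress genes rose in small numbers. Of 17 genes of the integrated stress response tested, 3 were higher, against 1.47% of all genes tested: CHAC1, which degrades glutathione, at 6.48 ± 0.510 CPM in TEPA+hypoxia and 3.38 ± 0.702 CPM in TEPA, and the transcription factors ATF3 and DDIT3, at log2 fold changes of 0.60 ± 0.13 and 0.63 ± 0.14. In the 18 immediate early genes tested, ATF3, DUSP1, JUN and ZFP36 were higher and IER3 was lower. DUSP1, a phosphatase that switches off MAP kinases, had 187, 191 and 179 CPM in TEPA+hypoxia and 149, 136 and 127 CPM in TEPA (log2 fold change 0.43 ± 0.08, adjusted p = 0.0156, edgeR). Its relative DUSP4, named after its values were seen, went the other way, at 92.1, 91.3 and 94.9 CPM in TEPA+hypoxia and 135, 130 and 129 CPM in TEPA (-0.50 ± 0.07 on the log2 scale, adjusted p = 0.00353, edgeR). HSP90AA1, the stress-induced form of the chaperone HSP90, rose to 3788 ± 124 CPM in TEPA+hypoxia, against 2925 ± 165 CPM in TEPA, with its partner CHORDC1 at 0.44 on the log2 scale (0.24 after the correction for GC content and length), and HSPA5, the chaperone of the endoplasmic reticulum, rose to 1618 ± 21.9 CPM in TEPA+hypoxia, against 1339 ± 29.5 CPM in TEPA (SD, n = 3 each). The 13 other heat shock genes and 18 other endoplasmic reticulum genes tested were not called. Of 17 alternatives, DDIT3, JUN and CHORDC1 lost their call in 7, and ATF3 and HSPA5 in 6. ZFP36 and IER3 lost it in 5, CHAC1 and DUSP1 in 4, HSP90AA1 in 3 and DUSP4 in 1.

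Further genes that rose or fell by more than most were chosen by size alone. ZMAT1, a zinc finger gene, had 7.64, 7.84 and 11.3 CPM in TEPA+hypoxia and 2.98, 2.79 and 3.95 CPM in TEPA (log2 fold change 1.47 ± 0.20, adjusted p = 0.00390, edgeR). EHHADH, an enzyme of peroxisomal fat oxidation, WNK4, a kinase that regulates ion transport, and C10orf25 rose by 0.96, 0.88 and 0.86 on the log2 scale, from levels of 3.86 to 4.33 CPM in TEPA. BTG2, which restrains proliferation, ERRFI1, which inhibits the EGF receptor, and NABP1, a single-stranded DNA binding protein, rose by 0.71, 0.72 and 0.68, and were named after their values were seen because they stayed called whichever library was left out.

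The largest fall of a protein-coding gene named here was that of CYP1A1, the cytochrome that the aryl hydrocarbon receptor induces, which shares the partner ARNT with HIF. It had 3.67, 2.73 and 2.34 CPM in TEPA+hypoxia, against 8.27, 9.04 and 8.09 CPM in TEPA, 2.91-fold lower, with groups far apart (log2 fold change -1.54 ± 0.18, adjusted p = 0.00147, edgeR). It was the only one of 8 genes of the aryl hydrocarbon receptor axis tested that was called. HS3ST1, which makes the antithrombin-binding form of heparan sulfate, had 3.85, 4.92 and 4.40 CPM in TEPA+hypoxia and 10.5, 9.95 and 8.15 CPM in TEPA (-1.12 ± 0.16, adjusted p = 0.00460, edgeR). RNF126, a ubiquitin ligase, had 78.6, 74.5 and 69.6 CPM in TEPA+hypoxia and 118, 120 and 108 CPM in TEPA (-0.64 ± 0.08, adjusted p = 0.00213, edgeR). FMN2, an actin nucleator, ROMO1, a small protein of the mitochondrial inner membrane, ANKRD39 and ATOH8, a transcription factor, fell by 0.74, 0.72, 0.65 and 0.64 on the log2 scale. RBM3, a cold-inducible RNA binding protein named after its values were seen, fell to 292 ± 12.2 CPM in TEPA+hypoxia, against 408 ± 22.6 CPM in TEPA (SD, n = 3 each). Like CYP1A1 and RNF126, RBM3 stayed called whichever library was left out.

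Several transfer RNAs of the mitochondrial genome fell steeply. They are cut out of long transcripts of that genome, where they sit between the genes for proteins and ribosomal RNA, and they are not the kind of RNA that the poly(A) selection used here is meant to capture. Of the 22, 13 had enough counts to test, none was higher and 6 were called lower (TRND, TRNF, TRNI, TRNL1, TRNT and TRNV), while 1.07% of all genes tested were. TRNS1 alone of the 13 had a positive log2 fold change, with 19, 24 and 21 reads in TEPA+hypoxia and 8, 13 and 9 reads in TEPA (1.25 ± 0.36, adjusted p = 0.0805, edgeR), and 1 transfer RNA was called higher with no filter on low counts. An RNA this rare can pass the filter on its higher group alone, so these counts are a description of the 13 and not of all 22. TRNT was represented by 8, 4 and 7 reads in TEPA+hypoxia and 86, 52 and 50 reads in TEPA, or 0.497, 0.243 and 0.400 CPM in TEPA+hypoxia and 3.51, 3.15 and 3.14 CPM in TEPA (log2 fold change -3.09 ± 0.29, adjusted p = 4.54e-04, edgeR). TRNV had 17, 3 and 11 reads in TEPA+hypoxia and 136, 80 and 74 in TEPA (-3.01 ± 0.34), TRNF 7, 3 and 7 reads in TEPA+hypoxia and 81, 45 and 24 in TEPA (-2.89 ± 0.41), and TRND 8, 7 and 4 reads in TEPA+hypoxia and 56, 30 and 38 in TEPA (-2.49 ± 0.34). These low counts lie near the floor in TEPA+hypoxia, so the folds are uncertain though the groups do not overlap. TRNL1, the best covered, had 14.7, 14.5 and 17.7 CPM in TEPA+hypoxia and 29.1, 33.2 and 30.0 CPM in TEPA (-0.97 ± 0.11, adjusted p = 0.00128, edgeR).

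Fewer of the protein and ribosomal RNA genes of the mitochondrial genome were called. Of the 13 mitochondrial protein genes, ND1, ND3 and ND6 of complex I and COX2 of complex IV were called lower and the other 9 were not. Over all genes tested 1.07% were called lower. The median of the 13 was -0.12. Of these 13 only ND1 was called without TEPA 1, TEPA 2, TEPA 3 or TEPA+hypoxia 2, and 7 were lower without TEPA+hypoxia 3. ND1, which follows TRNL1 directly, had 1040, 1023 and 1131 CPM in TEPA+hypoxia and 1518, 1585 and 1474 CPM in TEPA (-0.52 ± 0.06, adjusted p = 0.00189, edgeR). COX2, which follows TRND, had 3053 ± 113 CPM in TEPA+hypoxia and 3886 ± 164 CPM in TEPA (SD, n = 3 each). The ribosomal RNA RNR1, which lies between TRNF and TRNV, had 452, 425 and 1081 CPM in TEPA+hypoxia and 772, 660 and 640 CPM in TEPA, and was not called (-0.08 ± 0.27); TEPA+hypoxia 3 stood far above the other libraries for this gene, and without it RNR1 was called lower, at -0.65 (adjusted p = 7.50e-08, edgeR). The 13 mitochondrial protein genes together held 3.66% to 4.30% of counts in TEPA+hypoxia and 3.93% to 4.06% in TEPA.

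**Figure D4:**
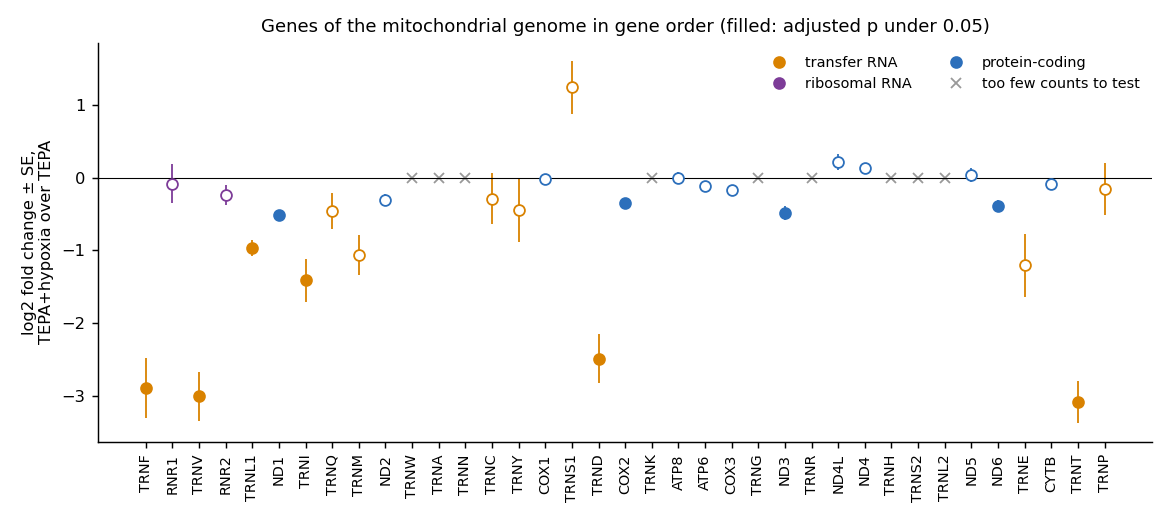
Log2 fold change with its SE (y axis), TEPA+hypoxia over TEPA, of the 37 genes of the mitochondrial genome in gene order (x axis), with transfer RNAs in orange, ribosomal RNAs in purple and protein genes in blue; filled points passed an adjusted p of 0.05 and crosses had too few counts. TRNT, TRNV, TRNF and TRND lie at -2.49 or below, while the protein genes lie between -0.52 and 0.21.

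Genes for the protein-making and energy machinery encoded in the nucleus had mostly negative log2 fold changes that did not pass the test. Of 79 ribosomal proteins tested, 75 had a negative log2 fold change, with a median of -0.24 against 0.01 over all genes, and 4 were called lower (5.06%, against 1.07% of all genes tested), RPL36A, RPL38 and RPL28 among them. None was called lower without TEPA 2 or TEPA 3, 1 without TEPA 1, 2 without TEPA+hypoxia 2 and 20 without TEPA+hypoxia 3. RPL36A had 11.24, 11.97 and 8.92 CPM in TEPA+hypoxia and 17.6, 19.5 and 20.2 CPM in TEPA (-0.83 ± 0.13, adjusted p = 0.00800, edgeR), and RPL28 499, 499 and 498 CPM in TEPA+hypoxia and 599, 598 and 574 CPM in TEPA. Ribosomal protein genes have many near-identical pseudogenes, such as RPS15P4, which fell by 0.68 on that scale, and how the authors' counting split such reads is not given. In the 39 nuclear genes of the respiratory chain 37 were negative, with a median of -0.21, and COX6C alone was called lower; none was without TEPA 1, TEPA 2, TEPA 3 or TEPA+hypoxia 2, and 6 were without TEPA+hypoxia 3. Proteasome subunits had 2 of 31 called lower, PSMB2 and PSMD8, against 1.07% of all genes tested, with a median of -0.20. PSMD8 was at -0.29, and at -0.18 after correction for GC content and length. With that correction 11 of the 31 were called lower and their median was -0.17, while 516 of 12269 genes were called lower. The median of the ribosomal proteins was -0.11 without TEPA+hypoxia 3 and -0.19 after correction for GC content and length, when 20 of them were called lower; that of the respiratory chain was -0.11 without TEPA+hypoxia 3 and -0.17 after that correction, when 8 of its genes were called lower.

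Small nucleolar RNAs, which guide chemical marks on ribosomal RNA and are cut from the introns of host genes, were looked at as a group after their values were seen. Of 133 tested, none was higher and 14 were lower, against 1.07% of all genes tested, at log2 fold changes of -1.46 to -0.71 and mostly under 5 CPM. SNORD36C had 3.62 ± 0.548 CPM in TEPA+hypoxia and 7.27 ± 1.68 CPM in TEPA, and SNORD22 7.75 ± 0.889 CPM in TEPA+hypoxia and 12.7 ± 1.94 CPM in TEPA (SD, n = 3 each). None of 14 listed snoRNA host genes tested was called (edgeR; 4 had an unadjusted p under 0.05, and DESeq2 and limma-voom called 0). After correction for GC content and length 1 of them was lower, while 516 of 12269 genes were called lower. Reads of a host's introns cannot be told apart from those of the snoRNA inside it.

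Few copper and metal genes were called between the groups, both of which received the chelator. Of 22 copper handling genes tested none was higher and 2 were lower, against 1.07% of all genes tested called lower. The 2 were ATOX1 and MT2A, each close to the threshold. ATOX1, the chaperone that hands copper to the export pumps, had 33.0, 32.5 and 27.7 CPM in TEPA+hypoxia and 40.3, 43.8 and 39.0 CPM in TEPA (-0.40 ± 0.10, adjusted p = 0.0486, edgeR). MT2A, a metallothionein that binds copper and zinc, had 555, 520 and 586 CPM in TEPA+hypoxia and 700, 722 and 648 CPM in TEPA (-0.32 ± 0.07, adjusted p = 0.0360, edgeR), and lost its call in 10 of 17 alternatives, the GC and length correction (-0.18) among them. The importer SLC31A1 had 49.2 ± 1.43 CPM in TEPA+hypoxia and 52.1 ± 0.748 CPM in TEPA, and the chaperone CCS 25.5 ± 4.22 CPM in TEPA+hypoxia and 28.2 ± 0.843 CPM in TEPA (SD, n = 3 each). The copper enzyme SOD1 had 230 ± 27.0 CPM in TEPA+hypoxia and 242 ± 13.1 CPM in TEPA, and none of these 3 was called. The exporter ATP7A had at most 8 counts in a library. None of 16 zinc transporters tested was called (edgeR; 1 had an unadjusted p under 0.05, and DESeq2 and limma-voom called 0). After the GC and length correction 1 of them was lower, while 516 of 12269 genes were called lower. Among 19 iron handling genes the ferritin chains FTH1 and FTL fell, by 0.30 and 0.36 on the log2 scale; FTL was at -0.21 after the GC and length correction.

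Other programs showed few calls. None of 24 cholesterol synthesis genes, 15 polyamine genes and 15 genes of clotting and fibrinolysis tested was called by edgeR, with medians of -0.15, -0.14 and -0.07. At an unadjusted p under 0.05 these lists held 9, 7 and 4 genes, and DESeq2 called 2 cholesterol genes and limma-voom 1, while both called 0 in the other 2 lists. The GC and length correction called 266 of 12269 genes higher and 516 lower. With it 3 cholesterol genes were lower, and in the clotting list 1 gene was higher and 2 lower. Of 33 genes of DNA replication and mitosis only the kinase PLK1 was called, and it fell to 211 ± 7.83 CPM in TEPA+hypoxia, against 260 ± 8.83 CPM in TEPA. Of 16 inflammatory genes only the chemokine CCL2 was called, and it fell to 27.7 ± 0.631 CPM in TEPA+hypoxia, against 36.1 ± 0.646 CPM in TEPA (SD, n = 3 each). Of 27 lysosome and autophagy genes, ATP6V0D1 of the proton pump was the only one called, at -0.31, while 6 were lower after the GC and length correction.

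**Figure D5:**
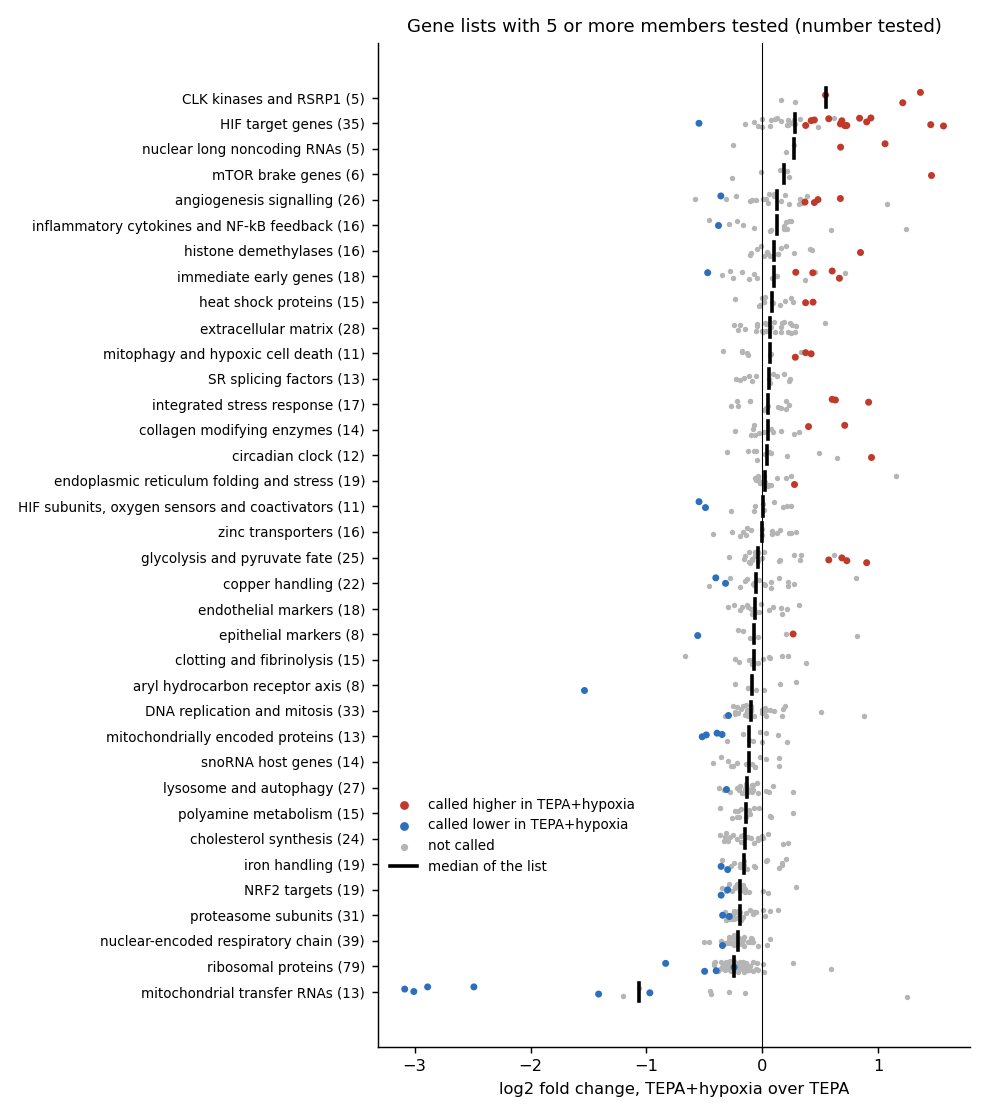
Log2 fold change of TEPA+hypoxia over TEPA (x axis) for each tested member of the gene lists with 5 or more members tested (y axis, number tested in brackets), ordered by their median (black bar); members called higher are red, members called lower blue and the others grey. The HIF targets have a median of 0.28 with 13 red points, while the ribosomal proteins crowd around -0.24 with 4 blue ones.

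The same exposure to low oxygen was also given without TEPA, and the difference between the responses was tested across all 12 libraries as an interaction. Of 14447 genes, 2498 responded more positively with TEPA and 3113 more negatively (38.8% called), but 0 genes were called without hypoxia 2 and 3, which stood apart, with median correlations across genes of 0.909 and 0.929 with the other 11 libraries, against 0.988 to 0.995 for the rest; in that 10-library fit by edgeR 4117 genes had an unadjusted p under 0.05. The count was also 0 without control 1, control 2, hypoxia 3, TEPA 2 or TEPA+hypoxia 3. It was 5261 and 4497 without hypoxia 1, and 833 to 1450 and 1430 to 2262 without hypoxia 2, TEPA 1, TEPA 3 or TEPA+hypoxia 2. Without TEPA the 10-library fit has hypoxia 1 alone, which is assumed to vary like the other groups, and the median log2 fold change of the 35 HIF targets was 0.28 with TEPA and 0.30 without it. In the 12-library fit, which includes hypoxia 2 and 3, the median without TEPA was 0.10.

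Side by side, ANGPTL4 was at 1.56 ± 0.08 on the log2 scale with TEPA and 2.13 without it in the 10-library fit, ADM at 0.45 with TEPA and 0.94 without it, BNIP3 at 0.37 with and 0.81 without, and ANKRD37 at 0.71 with and 1.46 without. In the other direction stood HK2, at 0.57 with TEPA and 0.11 without it, KDM3A, at 0.84 with and 0.44 without, and CLK1, at 1.36 with and 0.69 without. DDIT4, BHLHE40, ENO2 and RSRP1 had 1.45, 0.94, 0.90 and 1.21 with TEPA and 1.28, 0.95, 0.88 and 1.02 without it. CYP1A1 was at -1.54 with TEPA and -2.09 without it. For HIF1A the values were -0.07 with TEPA and -0.96 without it. None of these differences passed in the 10-library fit, whose smallest adjusted p over all genes was 0.0643 (edgeR).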

How the data were processed

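The authors deposited 1 table of raw read counts per gene symbol, 12 columns with whole numbers; per the labels' protocols, poly(A) RNA was sequenced from directional libraries, and per the submitters' processing notes reads were aligned with HISAT2 2.1.0 to GRCh38 and DESeq was among the tools. The sources used here name no read counter, annotation or strand setting. The 6 libraries compared were filtered with filterByExpr by group, scaled by TMM and tested with edgeR 4.0.16 (quasi-likelihood, two-sided, limma 3.58.1, R 4.3.3); the threshold for a call was 0.05 after Benjamini-Hochberg adjustment across 13968 genes. CPM use the TMM-scaled totals, and SE come from the fit. The fit was tested on simulated data. The interaction used all 12 libraries.

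Members and gene lists were chosen with earlier results of these data known. Named genes are the 12 highest and 12 lowest called changes of coding symbols at a mean of 5 CPM or more, 6 each way of noncoding symbols, called mitochondrial transfer RNAs, at most 4 members per list by smallest p, and 24 fixed genes; others were named after their values were seen. Alternatives were RLE and upper quartile scaling, 2 other filters, DESeq2 1.42.0, limma-voom, the replicate block, offsets for transcript GC and length (4-df splines, GENCODE 29), fits on 12 and 10 libraries, and leaving out each library. Some common genes had almost no counts (HK1 had 0), so 0 was not read as silence. Promoter sequences are from RefSeq (GRCh38.p14). A few genes that these rules name are not reported here.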

Additional observations from a re-analysis of the deposited data

Results flagged for a closer look

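For the following genes the response to low oxygen differed with and without TEPA at an adjusted p under 0.05 in the edgeR interaction test on 12 libraries; the values are log2 differences, the response with TEPA minus the response without it. No gene passed in the fit without hypoxia 2 and 3, in which each of these genes kept its sign but not its size: the 12-library difference was a median of 2.16 times the 10-library one, and over 1.5 times it for 43 of the 53 genes. ANGPTL4 was at -0.56, MT2A at -0.76, RPL28 at -0.66, CCS at -0.45 and LOC284454 at -0.19 in that smaller fit. Among genes that fell with TEPA, the differences were -2.91 for ROMO1, -2.88 for TRNT, -2.57 for RPS15P4, -2.31 for RPL38, -2.14 for TRND, -2.11 for MT2A, -2.10 for ATOX1, -2.08 for RPL28, -1.82 for ANKRD39 and -1.78 for COX6C. They were -1.55 for VEGFB, -1.52 for FTL, -1.41 for FTH1, -1.39 for SNORD36C, -1.37 for RNF126, -1.24 for ND3, -0.99 for PSMD8, -0.88 for IER3, -0.86 for ATP6V0D1, -0.75 for PSMB2, -0.67 for ZNF703, -0.62 for COX2, -0.46 for RBM3, -0.41 for PLK1 and -0.36 for LOC90784. RPL36A, at 0.92, and FMN2, at 1.03, fell with TEPA but less than without it.

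Among genes that rose with TEPA, the difference was -1.37 for ANGPTL4, -0.93 for LOC284454, -0.69 for ADM and -0.46 for BNIP3. It was above 0 for HSP90AA1 at 0.53, ATF3 at 0.58, MCL1 at 0.68, LOC105370526 at 0.74, CLK1 at 0.91, HK2 at 1.00, KDM3A at 1.01, JAG1 at 1.01, ERRFI1 at 1.17, STC1 at 1.25, EHHADH at 1.43 and ZMAT1 at 2.04. Genes not called with TEPA had differences of -1.63 for CCS, -1.46 for ANKRD37, -1.36 for KRT7, -1.14 for GAPDH, -0.93 for SOD1, -0.85 for MALAT1, -0.40 for CD68, 0.63 for ARNT, 0.75 for LOX and 1.98 for HIF1A.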

How the results depend on the processing

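Of the 355 calls, RLE and upper quartile scaling, the CPM filter, limma-voom and a 10-library fit kept both counts within 1.5 times. Other settings moved them: with no filter 790 genes were higher and 695 lower, with DESeq2 350 and 339, with the GC and length correction 516 lower, and with all 12 libraries, whose common dispersion was 0.0339 against 0.00821, 9 and 5. Leaving out single libraries gave 28 to 575 higher and 15 to 550 lower; 23 higher and 13 lower genes were called in all 6 such fits. The deviations of same-numbered libraries from their group correlated at -0.16, 0.14 and 0.00, and TEPA+hypoxia 2 alone of its group correlated best with its own number. With 3 libraries per group, and deviations that also followed GC content, these values cannot decide whether the numbers pair the libraries. With the replicate block 175 genes were higher and 150 lower, and with the correction added to the block 125 and 182. The interaction gave 2526 and 2543 with no filter, 3115 and 3534 with DESeq2, 3277 and 2905 with limma-voom, 2020 and 2522 with the replicate block, 0 and 0 without hypoxia 2 and 3, and 0 to 5261 higher and 0 to 4497 lower without single libraries. Of 1815 values of 109 named genes under these settings, 1409 kept their direction and their side of the threshold, 375 lost a call, 19 gained one and 12 changed sign. The GC and length correction moved 8 of the 72 called ones with a value by over 1.5 times. The sign changes were of genes that were not called: ARNT was at -0.052 with the GC and length correction and at -0.054 with the block added, and SOD1 at 0.0071 and 0.0068. Without single libraries the log2 fold change of ARNT ranged from -0.053 to 0.052, HIF1A from -0.22 to 0.029, PGK1 from -0.088 to 0.049, RNR1 from -0.65 to 0.15 and SOD1 from -0.15 to 0.023. Depth limits what can be said of RNAs near the floor, such as the mitochondrial transfer RNAs.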

Other observations

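Zinc finger genes whose symbols are ZNF and a number, a group picked after its values were seen, had 11 members called higher and 4 called lower by edgeR among 343 tested. These are 3.21% and 1.17%, against 1.47% and 1.07% of all genes tested. The median log2 fold change of the group was 0.17, against 0.01 over all genes tested. ZNF767P rose by 0.79 and ZNF703 fell by 0.37 on that scale. After the correction for GC content and transcript length the median of the 342 with a value was 0.08, with 11 higher and 6 lower. That correction called 266 of 12269 genes higher and 516 lower, with a median of -0.03 over all of them. Genes called higher in TEPA+hypoxia had a median transcript GC content of 43.4%, genes called lower 56.8% and all genes tested 48.3%. Across genes the log2 fold change had a Spearman correlation of -0.37 with GC content, which was -0.04 after the correction; genes are not independent replicates. Within TEPA+hypoxia, the deviation of a library from its group correlated with GC content at 0.36, 0.29 and -0.42 in replicates 1 to 3, and within TEPA at -0.02, 0.33 and -0.33. The part of GC content in the calls was not tested beyond that correction.

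Other parts of the translation and energy machinery had the same sign as the ribosomal proteins. Among 80 mitochondrial ribosomal proteins 69 had a negative log2 fold change, with a median of -0.17 and 2 called lower, and among 47 symbols starting with NDUF, which include the subunits of complex I, 44 were negative, with a median of -0.24 and 5 called lower. Ribosomal protein pseudogenes had 7 of 116 called lower (6.03%), with a median of -0.26. The share called lower was 2.5% for the mitochondrial ribosomal proteins and 10.6% for the NDUF symbols, against 1.07% of all genes tested.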
